A study of Homo sapiens with 4 samples.

Results

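The genes of heme synthesis and iron uptake were examined in an RNA-seq experiment on CEBPG knockdown. They comprised 8 enzymes of heme synthesis (ALAS1, ALAS2, ALAD, UROS, UROD, CPOX, PPOX and FECH) and TFRC, the receptor through which cells take up iron bound to transferrin. These 9 genes were picked by symbol from 16504 gene symbols in the expression table. The rule used no measured value, though it was set with earlier results of these data known. All 9 were found, and all 9 were among the 10968 genes with enough signal to be tested. The table held 4 libraries labelled NB4, the name of a cell line from human acute promyelocytic leukemia. The control group was 2 libraries labelled with CEBPG present, and the knockdown group was 2 libraries labelled with CEBPG knocked down. In the study's methods, hairpin RNAs against CEBPG were delivered in a lentiviral vector and infected cells were selected with puromycin. The study compares them with cells it calls shRNA controls, and whether these were infected and selected in the same way is not given in the sources used here. The knockdown titles name a single construct, CEBPG3, so loss of CEBPG and any other effect of that construct cannot be told apart. CEBPG encodes a transcription factor with a leucine zipper, a member of the CEBP family.

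Heme is built from glycine and succinyl-CoA in a path that begins and ends in the mitochondrion and passes through the cytosol between. The first step is catalysed by aminolevulinate synthase, which is encoded by ALAS1 in most cells and by ALAS2 in erythroid cells. In erythroid cells the supply of iron through the transferrin receptor is coupled to heme synthesis by iron regulatory proteins, which bind RNA hairpins called iron-responsive elements. Bound to an element in a 5′ UTR these proteins block translation, and bound to elements in a 3′ UTR they protect the RNA from decay.

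The RNA hairpins that tie ALAS2 and TFRC to iron supply were located first, since these genes hold the largest decrease and the largest increase among the members. A match was required to hold a C, 5 further bases, the loop letters CAGTGN, and 5 bases able to pair with the first 5, with G-T pairs allowed. The search covered the 5′ and 3′ UTRs of 19061 transcripts of GENCODE 44 on GRCh38. A match was found in the 5′ UTR of 19 transcripts (0.0997%) and in the 3′ UTR of 121 (0.635%). Of the 9 members, ALAS2 held 1 match in its 5′ UTR and TFRC held 4 in its 3′ UTR. The letters were not found in the UTRs of the other 7 members. Each window of 27 bases is written 5′ to 3′ in the sense of the gene, with the loop in capitals.
ALAS2, 5′ UTR, chrX:55030942-55030968, minus strand: tcgttcgtcctCAGTGCagggcaacag
TFRC, 3′ UTR, chr3:196050980-196051006, minus strand: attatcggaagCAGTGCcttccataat
TFRC, 3′ UTR, chr3:196050576-196050602, minus strand: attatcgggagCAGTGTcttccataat
TFRC, 3′ UTR, chr3:196050511-196050537, minus strand: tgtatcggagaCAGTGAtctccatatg
TFRC, 3′ UTR, chr3:196050464-196050490, minus strand: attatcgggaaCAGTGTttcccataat

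Promoter windows of RefSeq (GRCh38.p14), each of 300 bases around a start site, most of them before it, were available for 8 of the 9 members in 10 windows. UROS had no entry. The letters GATAA, used by erythroid GATA factors, were read on both strands. They were in 3 of the 10 windows, from 3 members (ALAS2, CPOX and PPOX), against 22.7% of 35116 promoters. CACCC, used by KLF factors, was in 9 of the 10 windows, from 7 members (59.9% of all promoters). CCAAT was in 4 of the 10 windows, from 4 members (34.6%). The response element shared by CEBP and ATF proteins, searched as TGATGNAAN, was in none of the 10 windows (3.61% of all promoters). The 200 bases before the start of ALAS2 are shown because this was the member with the largest change and its window held 2 GATAA matches. They lie at chrX:55030978-55031177 and are written on the minus strand with these matches in capitals.
ALAS2 upstream region: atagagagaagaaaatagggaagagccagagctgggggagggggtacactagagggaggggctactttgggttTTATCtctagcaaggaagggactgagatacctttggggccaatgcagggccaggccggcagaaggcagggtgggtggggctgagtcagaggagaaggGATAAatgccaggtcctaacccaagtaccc

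Values are FPKM, the fragments of a transcript scaled to its length and to the mapped fragments of the library, with the transcripts of a gene summed. FPKM per library summed to between 345340 and 366139 over genes with a symbol, and read depth was unknown. CEBPG itself was at 17.1 and 18.1 FPKM in the control samples, against 6.91 and 7.96 FPKM with the knockdown, 42.2% of the control level (log2 fold change -1.14, limma adjusted p = 0.000836). The 4 libraries carried the markers of erythroid cells. Of 15 erythroid markers, 12 exceeded 10 FPKM in every library, and the list summed to between 7886 and 9361 FPKM. GATA1, the erythroid master regulator, was at 110 to 128 FPKM. SLC4A1 and AHSP, which mark later erythroid cells, were under 1 FPKM in every library. Of 14 promyelocyte and granulocyte markers, 3 were not analysed here and the other 11 summed to between 54.5 and 57.1 FPKM. Of these, 2 (LYZ and SPI1) exceeded 10 FPKM in every library. The granule protein PRTN3 was at or below 0.19 FPKM and AZU1 at or below 0.57 FPKM in every library. The cells are therefore called libraries labelled NB4. Whether the label names the cell line that was sequenced was not tested.

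Of the 9 members, 3 were lower in the knockdown (ALAS2, ALAD and FECH) and none passed the test as higher. Each gene was tested in limma on log2(FPKM + 1), with Benjamini-Hochberg adjustment over all 10968 genes, and called at an adjusted p under 0.05. The 3 lower members were 33.3% of the 9, against 9.99% of all tested genes called lower. None of the 9 was called higher, against 10.9% of all tested genes, and 1 (TFRC) was higher at an unadjusted p under 0.05. In either direction 20.9% of all tested genes were called. The control and knockdown libraries did not overlap for 7 of 9 members (77.8%), and this held for 64.8% of all tested genes. In this limma fit no member passed the threshold stated in the study's methods. That threshold was read here as an unadjusted p under 0.05 with a log2 fold change over 1 in either direction. Of all tested genes, 0.602% passed it. The study applied its threshold in DESeq2, a test on counts, so its own calls for these genes may differ. Estimates were negative for 5 members and positive for 4, with a median of -0.0062 beside 0.015 over all tested genes. Nothing in the labels places the replicates in separate cultures, so the p-values measure only the spread between these samples. In bulk RNA, fewer cells of a type and less RNA per cell cannot be told apart.

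**Figure D1:**
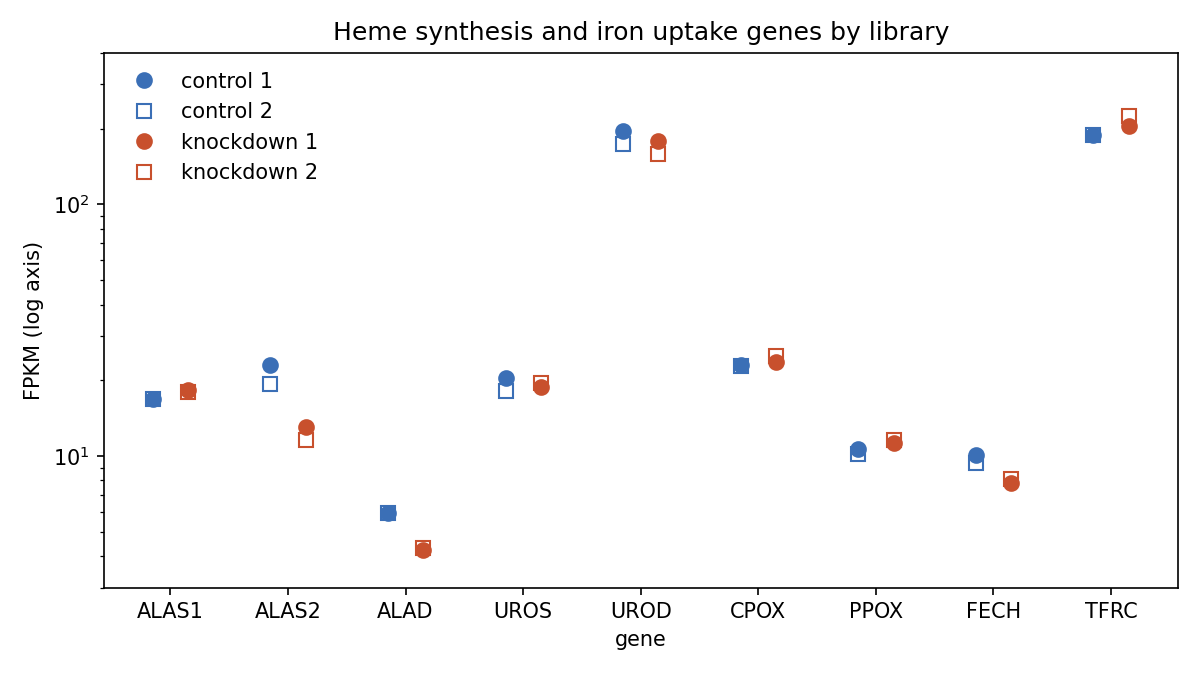
FPKM of the 9 members in each library on a log axis, with filled circles for replicate 1 and open squares for replicate 2 of the control (blue) and knockdown (red) groups. ALAS2, ALAD and FECH lie lower in both knockdown libraries, while TFRC and UROD lie far above the other 7 genes.

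Of the 2 genes for aminolevulinate synthase, the enzyme of the first and rate-limiting step, ALAS2 was lower in the knockdown and ALAS1 was not called. ALAS2, the erythroid form, lies on chromosome X at 55009055 to 55030977 on the minus strand, with 11 exons in its main transcript. ALAS2 was at 23.0 and 19.3 FPKM in the 2 controls and 13.1 and 11.6 FPKM after knockdown. Both knockdown libraries lay well below both control libraries, and 58.2% of the control level remained. The mean fell from 21.2 ± 2.6 FPKM to 12.3 ± 1.08 FPKM (SD, n = 2 each), a log2 fold change of -0.73 (SE 0.0989, 95% confidence interval -0.97 to -0.50, limma adjusted p = 0.00485). When each library was left out in turn, ALAS2 stayed lower, with log2 fold changes from -0.85 to -0.61. It was the only member called lower under each of the 11 alternative settings run at the gene level, with adjusted p from 3.73e-05 to 0.0466. ALAS2 shares 3 of 1940 exonic bases (0.155%) with APEX2 on the opposite strand, and whether strand was used in the quantification is not given in the sources used here.

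ALAS1, the form used by most tissues, lies on chromosome 3 at 52198086 to 52214327 on the plus strand, with 12 exons. Its level was 16.9 and 16.8 FPKM in the control samples, against 18.4 and 17.9 FPKM with the knockdown. Both knockdown libraries were slightly above both controls, at 108% of the control mean. The log2 fold change was 0.10 (SE 0.0599, 95% confidence interval -0.04 to 0.24, limma adjusted p = 0.262), so ALAS1 was not called. The interval lies wholly above that of ALAS2, though the difference between the genes was not itself tested. The ratio of ALAS2 to ALAS1 within a library, which does not depend on how the library was scaled, was 1.37 and 1.15 in the control libraries and 0.713 and 0.644 with the knockdown. ALAS2 was thus the more abundant of the pair in both controls and the less abundant in both knockdown libraries. It made up 57.7% and 53.5% of their summed FPKM in the controls and 41.6% and 39.2% in the knockdown libraries. The sum of ALAS1 and ALAS2 was 39.9 and 36.1 FPKM in the 2 controls and 31.4 and 29.5 FPKM after knockdown.

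ALAD, the enzyme that joins aminolevulinate molecules into porphobilinogen, lies on chromosome 9 at 113386312 to 113401290 on the minus strand, with 12 exons. ALAD was the least abundant member, at 5.93 and 5.95 FPKM in the control samples, against 4.23 and 4.32 FPKM with the knockdown. The replicates of each group nearly coincided and the groups were well apart. The mean fell from 5.94 ± 0.0145 FPKM to 4.28 ± 0.0601 FPKM (SD, n = 2 each), which left 72.1% of the control level. On the log2 scale the change was -0.39 (SE 0.0744, 95% confidence interval -0.57 to -0.22, limma adjusted p = 0.0141). The call was lost without knockdown 1 (adjusted p = 0.0706) and without knockdown 2 (adjusted p = 0.0567), with estimates of -0.38 and -0.41.

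The enzymes of the middle steps did not pass the test in either direction. UROS, which closes the porphyrin ring, lies on chromosome 10 at 125784980 to 125823258 on the minus strand, with 10 exons. UROS was at 20.4 and 18.1 FPKM in the 2 controls and 18.7 and 19.6 FPKM after knockdown. Both knockdown values fell between the controls, and the log2 fold change was -0.0062 (SE 0.0756, 95% confidence interval -0.19 to 0.17, limma adjusted p = 0.961). Its sign turned without control 1 (0.077) and without knockdown 1 (0.024). UROD, which removes carboxyl groups from the ring, lies on chromosome 1 at 45010950 to 45015575 on the plus strand, with 10 exons. It was at 197 and 175 FPKM in the control samples, against 179 and 159 FPKM with the knockdown. The groups overlapped, and the log2 fold change was -0.14 (SE 0.0836, 95% confidence interval -0.33 to 0.063, limma adjusted p = 0.284). It ranged from -0.22 to -0.051 when each library was left out in turn.

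Of the 3 last enzymes, which act at or in the mitochondrion, only FECH was called. CPOX and PPOX catalyse successive oxidations, and FECH inserts the iron. CPOX, on chromosome 3 at 98579446 to 98593648 on the minus strand with 7 exons, was at 22.9 and 22.8 FPKM in the control samples, against 23.7 and 24.96 FPKM with the knockdown. PPOX, on chromosome 1 at 161166056 to 161178013 on the plus strand with 13 exons, was at 10.6 and 10.2 FPKM in the 2 controls and 11.2 and 11.6 FPKM after knockdown. Both knockdown libraries were above both controls for each gene, and neither gene passed the test. The log2 fold change was 0.086 for CPOX (95% confidence interval -0.057 to 0.23, limma adjusted p = 0.342) and 0.12 for PPOX (95% confidence interval -0.034 to 0.28, limma adjusted p = 0.224). That of CPOX was 0.051 without knockdown 2 and 0.12 without knockdown 1. CPOX shares 163 of 2709 exonic bases (6.02%) with ENSG00000285635 on the same strand, so a part of its signal may be divided between them.

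FECH, ferrochelatase, lies on chromosome 18 at 57544377 to 57586732 on the minus strand, with 11 exons. FECH was at 10.1 and 9.39 FPKM in the control samples, against 7.85 and 8.08 FPKM with the knockdown. Both knockdown libraries lay below both controls, at 81.9% of the control mean. The mean fell from 9.73 ± 0.472 FPKM to 7.96 ± 0.163 FPKM (SD, n = 2 each), with a log2 fold change of -0.26 (SE 0.0706, 95% confidence interval -0.43 to -0.091, limma adjusted p = 0.0435). This call rested on all 4 libraries: the adjusted p was 0.139 without control 1, 0.0625 without control 2, 0.179 without knockdown 1 and 0.122 without knockdown 2. The estimate stayed between -0.30 and -0.21 in those fits.

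TFRC, the receptor for iron uptake, lies on chromosome 3 at 196012511 to 196082153 on the minus strand, with 19 exons. TFRC was at 189 and 188 FPKM in the 2 controls and 206 and 224 FPKM after knockdown. The controls nearly coincided and both knockdown libraries were above them, at 114% of the control mean. The mean was 188.6 ± 0.176 FPKM in the control group and 214.8 ± 13.2 FPKM in the knockdown group (SD, n = 2 each). The log2 fold change of 0.19 (SE 0.0636, 95% confidence interval 0.034 to 0.34) was not called (limma unadjusted p = 0.0231, adjusted p = 0.0819), and it ranged from 0.12 to 0.25 when each library was left out in turn.

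**Figure D2:**
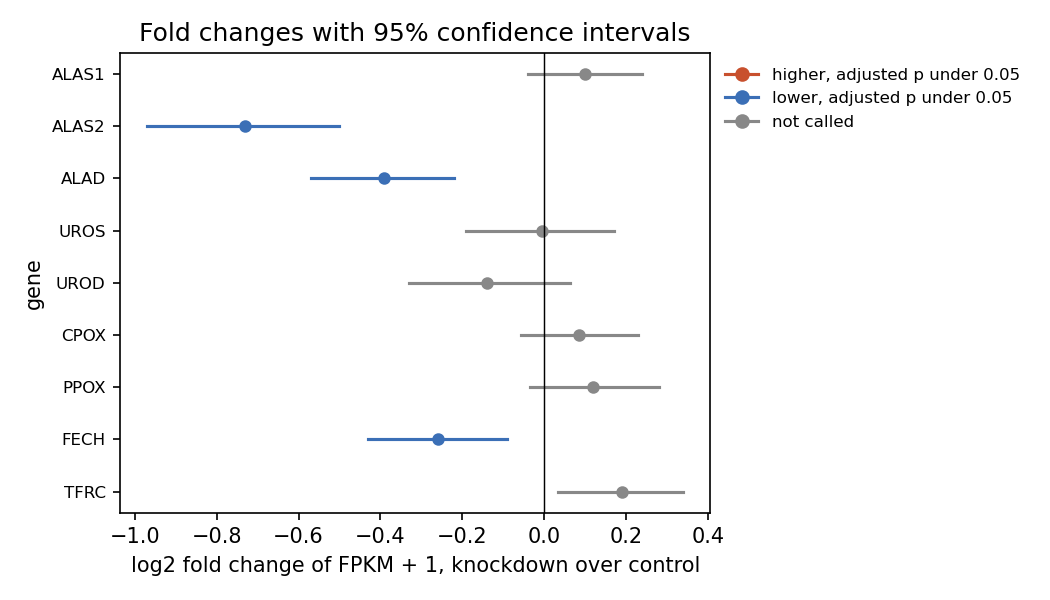
Log2 fold changes of FPKM + 1, knockdown over control, with 95% confidence intervals from limma for the 9 members, coloured by call. The intervals of ALAS2 (-0.97 to -0.50), ALAD and FECH lie below 0 and were called, and that of TFRC (0.034 to 0.34) lies above 0 without a call.

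The members spanned a wide range of levels per length. In order of mean FPKM over the 4 libraries they were TFRC (201.7), UROD (177.2), CPOX (23.6), UROS (19.2), ALAS1 (17.5), ALAS2 (16.7), PPOX (10.9), FECH (8.84) and ALAD (5.11). TFRC ranked 226 and ALAD ranked 7561 among all genes. The library ranges of TFRC and UROD overlapped, as did those of UROS and ALAS1, of ALAS1 and ALAS2, and of ALAS2 and PPOX. The other neighbours in the order did not overlap. The place of ALAS2 depended on the group: its mean of 21.2 FPKM in the controls was above those of UROS (19.3) and ALAS1 (16.8), and its mean of 12.3 FPKM with the knockdown was below both. UROD alone held 61.9% to 64.8% of the summed FPKM of the 8 enzymes in each library. The share of ALAS2 in that sum was 7.51% and 6.97% in the control libraries and 4.74% and 4.49% with the knockdown. The summed FPKM of the 8 enzymes was 306 and 277 in the controls and 276 and 257 in the knockdown libraries, so control 2 and knockdown 1 were nearly equal.

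The gene totals were made of 22 RefSeq transcripts, of which 19 had enough signal to be tested. UROS and CPOX had 1 transcript each, and the other 7 members had more. No member transcript passed at an adjusted p under 0.05 in limma, where 0.158% of all 15795 tested transcripts did. At an unadjusted p under 0.05 there were 2 of 19 (10.5%), NM_001037967 of ALAS2 and NM_000031 of ALAD, against 20.3% of all tested transcripts. Transcript values also depend on how the reads of a gene were shared out among its transcripts.

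Most of the difference in ALAS2 lay in NM_001037967. This transcript was at 12.1 and 11.3 FPKM in the control samples, against 5.77 and 5.38 FPKM with the knockdown, a log2 fold change of -0.95 (SE 0.0887, limma adjusted p = 0.0632). Its groups were far apart and its replicates close. NM_000032 was at 8.44 and 6.80 FPKM in the 2 controls and 7.24 and 5.34 FPKM after knockdown, and its groups overlapped (log2 fold change -0.25, limma adjusted p = 0.514). The share of NM_001037967 in the ALAS2 total was 52.5% and 58.4% in the controls and 44.1% and 46.6% in the knockdown libraries. NM_001037968 was the least abundant, at 2.49, 1.24, 0.0618 and 0.834 FPKM in control 1, control 2, knockdown 1 and knockdown 2. In ALAD the main transcript NM_000031 was at 4.43 and 5.29 FPKM in the control samples, against 3.65 and 2.92 FPKM with the knockdown (log2 fold change -0.45, limma adjusted p = 0.235). In FECH the main transcript NM_000140 was at 9.13 and 8.16 FPKM in the 2 controls and 6.32 and 7.33 FPKM after knockdown (log2 fold change -0.30, limma adjusted p = 0.266).

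In PPOX the transcripts of control 1 stood apart from those of the other libraries. NM_000309 held 79.3% of the PPOX total in control 1 but 6.49% in control 2, 2.67% in knockdown 1 and 13.2% in knockdown 2, and NM_001122764 held the rest. The summed level of PPOX did not differ in that way. In TFRC, NM_001128148 was at 88.1, 100, 104 and 145 FPKM and NM_003234 at 97.0, 84.8, 90.6 and 76.4 FPKM in control 1, control 2, knockdown 1 and knockdown 2. The higher total of TFRC in knockdown 2 thus lay in NM_001128148, whose share there was 64.6% against 46.7% to 53.1% in the other libraries (log2 fold change 0.38, limma adjusted p = 0.343).

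**Figure D3:**
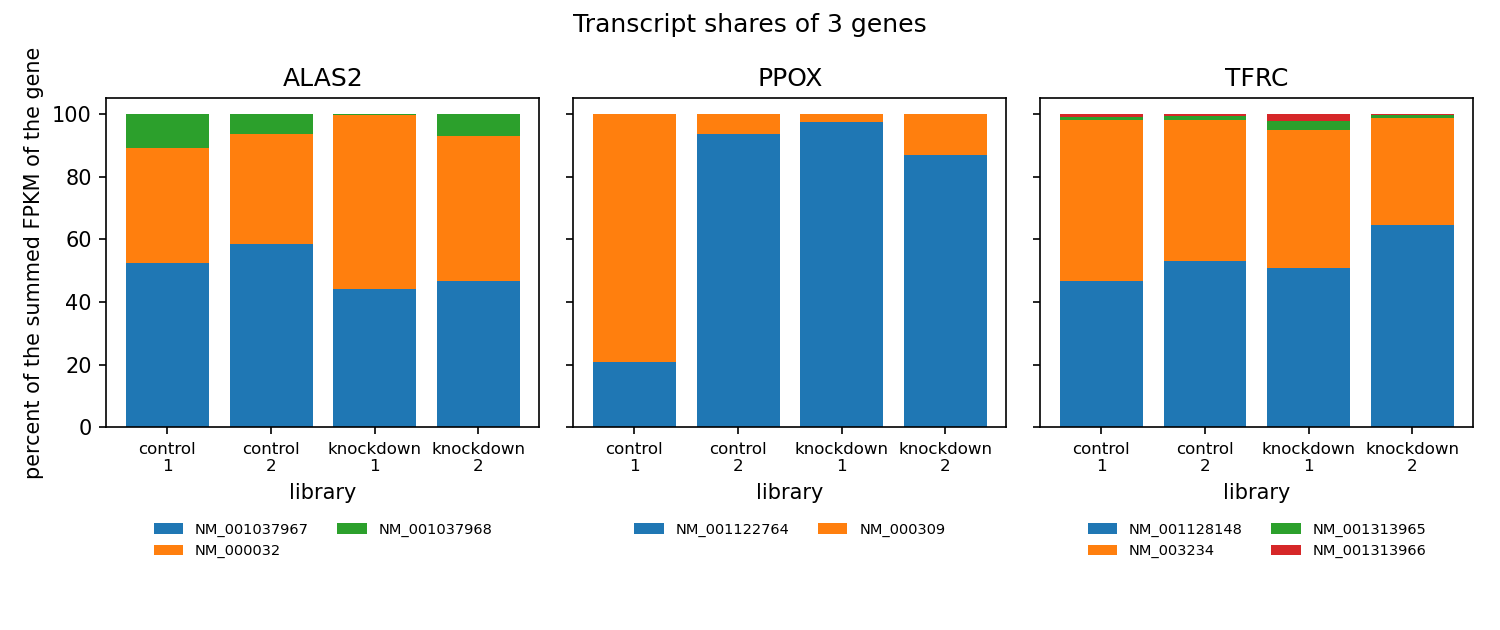
Percent of the summed FPKM of ALAS2, PPOX and TFRC held by each RefSeq transcript, with 1 stacked bar per library. The share of NM_001037967 in ALAS2 is lower in both knockdown libraries, and control 1 is the only library in which NM_000309 holds most of PPOX (79.3%).

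The other genes of heme and iron handling were taken from 5 lists of general knowledge with 42 genes. Of these, 38 were tested, 2 (FLVCR2 and HFE) were below the filter and 2 were not analysed here. In all, 6 were higher and 9 lower in the knockdown, 23 were not called, and the median log2 fold change was -0.015 beside 0.015 over all tested genes. The genes called higher were 15.8% of the 38 and those called lower 23.7%, beside 10.9% and 9.99% of all tested genes. The same shares of all tested genes stand beside the counts of each separate list below, where few genes were tested. HFE, a partner of the transferrin receptors, was at 0.664 and 0.241 FPKM in the control samples, against 1.40 and 1.25 FPKM with the knockdown, and was not tested. Of the 15 called genes, 3 (HMOX2, BLVRB and PCBP1) were called under each of the 11 alternatives at the gene level, 12 lost the call under at least 1, and none changed sign.

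**Figure D4:**
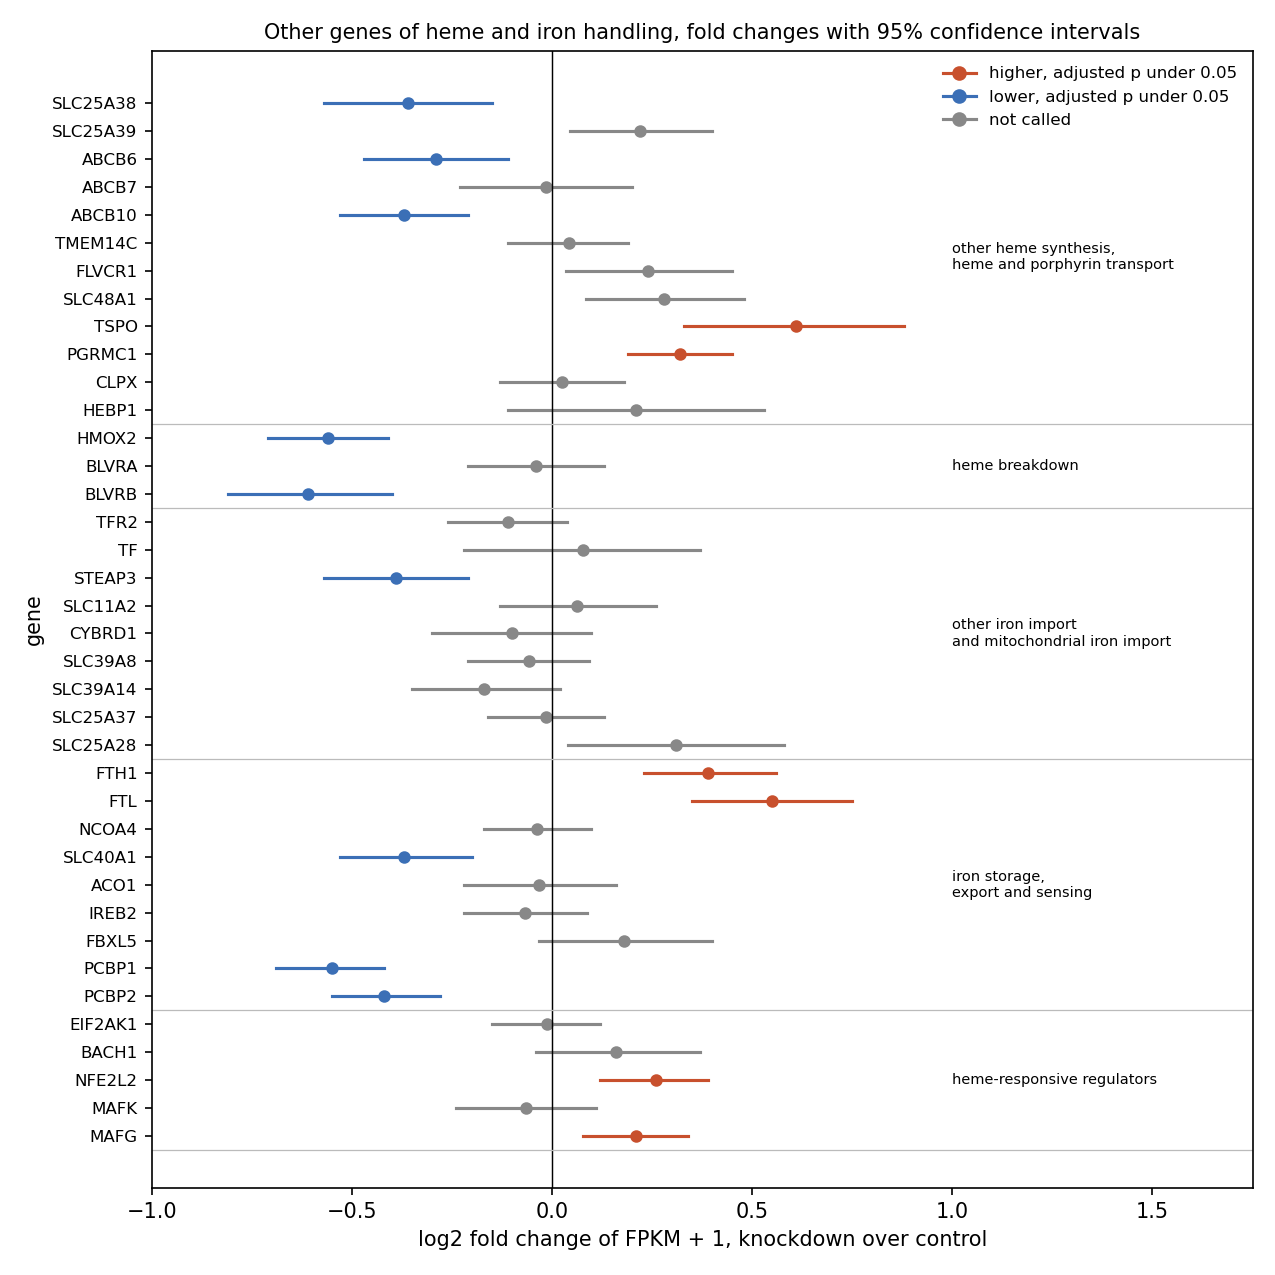
Log2 fold changes of FPKM + 1, knockdown over control, with 95% confidence intervals from limma for the 38 tested genes of 5 lists, separated by lines and coloured by call. HMOX2, BLVRB and PCBP1 lie near -0.6, and FTL (0.55) and TSPO (0.61) lie highest.

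Among 13 other genes of heme synthesis and of heme and porphyrin transport, 12 were tested, with 3 lower and 2 higher. SLC25A38, which carries glycine into the mitochondrion for the first step of the path, was at 20.2 and 16.9 FPKM in the 2 controls and 14.1 and 14.3 FPKM after knockdown (log2 fold change -0.36, limma adjusted p = 0.0337). ABCB10, a mitochondrial transporter needed for heme synthesis in erythroid cells, was at 24.6 and 22.6 FPKM in the control samples, against 18.3 and 17.7 FPKM with the knockdown (log2 fold change -0.37, limma adjusted p = 0.0126). ABCB6, a porphyrin transporter, was at 14.9 and 13.2 FPKM in the 2 controls and 11.1 and 11.4 FPKM after knockdown (log2 fold change -0.29, limma adjusted p = 0.0404). All 3 transporters were lower in both knockdown libraries than in both controls. The genes called higher were TSPO, a porphyrin-binding protein of the outer mitochondrial membrane, and PGRMC1, a heme-binding protein. TSPO was at 37.7 and 30.0 FPKM in the control samples, against 55.6 and 48.2 FPKM with the knockdown (log2 fold change 0.61, limma adjusted p = 0.015). PGRMC1 was at 43.8 and 42.6 FPKM in the 2 controls and 54.7 and 53.6 FPKM after knockdown (log2 fold change 0.32, limma adjusted p = 0.0115). Each call was lost when a library was left out: the adjusted p without knockdown 1 was 0.131 for SLC25A38, 0.0589 for ABCB10, 0.165 for ABCB6, 0.0808 for TSPO and 0.0927 for PGRMC1. Without knockdown 2 it was 0.109 for SLC25A38, 0.0715 for ABCB10, 0.118 for ABCB6 and 0.0691 for PGRMC1, and without control 1 it was 0.0766 for SLC25A38 and 0.123 for ABCB6. The log2 fold change of SLC25A38 was -0.23 without control 1.

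Of the heme breakdown genes, 2 of 3 tested were lower. HMOX2, the constitutive heme oxygenase, was at 15.32 and 15.01 FPKM in the control samples, against 9.89 and 9.997 FPKM with the knockdown (log2 fold change -0.56, limma adjusted p = 0.00265). BLVRB, an abundant biliverdin reductase of red cells, was at 216 and 195 FPKM in the 2 controls and 144 and 125 FPKM after knockdown (log2 fold change -0.61, limma adjusted p = 0.00574). Both stood at 65.6% of the control mean, a larger decrease than those of ALAD and FECH and a smaller one than that of ALAS2. These differences between genes were not tested.

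In the list of other iron import genes, 1 of 9 tested was called. STEAP3, which reduces iron released from transferrin in the endosome, was at 14.9 and 14.5 FPKM in the control samples, against 10.3 and 11.7 FPKM with the knockdown (log2 fold change -0.39, limma adjusted p = 0.0162, and 0.0927 without knockdown 1). TFR2, the second transferrin receptor, was at 22.09 and 20.86 FPKM in the 2 controls and 20.04 and 19.54 FPKM after knockdown and was not called (log2 fold change -0.11, limma adjusted p = 0.239). The receptors and the reductase of the transferrin route thus had estimates of both signs, with TFRC the only positive one.

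Iron storage, export and sensing held 9 tested genes, 2 higher and 3 lower. FTL and FTH1, the subunits of the iron store ferritin, were the most abundant genes of these 5 lists. FTL was at 3376 and 2969 FPKM in the control samples, against 4701 and 4577 FPKM with the knockdown, 146% of the control mean (log2 fold change 0.55, limma adjusted p = 0.0072). FTH1 was at 1706 and 1589 FPKM in the 2 controls and 2206 and 2122 FPKM after knockdown, 131% of the control mean (log2 fold change 0.39, limma adjusted p = 0.0122). Both have processed pseudogene copies with which reads may be shared, so their levels are uncertain. SLC40A1, the iron exporter ferroportin, was at 18.3 and 17.9 FPKM in the control samples, against 13.2 and 14.5 FPKM with the knockdown (log2 fold change -0.37, limma adjusted p = 0.0141). PCBP1 and PCBP2, RNA-binding proteins that also deliver iron to ferritin, were lower. PCBP1 was at 213 and 201 FPKM in the 2 controls and 142 and 139 FPKM after knockdown (log2 fold change -0.55, limma adjusted p = 0.00226). PCBP2 was at 164 and 155 FPKM in the control samples, against 121 and 117 FPKM with the knockdown (log2 fold change -0.42, limma adjusted p = 0.00555). The adjusted p without knockdown 1 was 0.108 for FTL, 0.164 for FTH1 and 0.0919 for SLC40A1, and without knockdown 2 it was 0.083 for FTL, 0.112 for FTH1 and 0.0598 for PCBP2.

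Ferritin and ferroportin RNAs are, with that of ALAS2, the textbook carriers of an iron-responsive element in the 5′ UTR, and their matches are shown for comparison with that of ALAS2. The loop letters of ALAS2 and FTH1 were the same, while FTL and SLC40A1 held another last letter.
FTH1, 5′ UTR, chr11:61967575-61967601, minus strand: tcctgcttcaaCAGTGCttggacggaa
FTL, 5′ UTR, chr19:48965336-48965362, plus strand: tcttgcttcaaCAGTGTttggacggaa
SLC40A1, 5′ UTR, chr2:189580662-189580688, minus strand: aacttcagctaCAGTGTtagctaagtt
RNA levels of these 4 genes did not move together: ALAS2 (58.2% of control) and SLC40A1 (76.3%) were lower, and FTH1 (131%) and FTL (146%) were higher. Protein was not measured, and translation, on which a 5′ element acts, cannot be read from these libraries.

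Of 5 heme-responsive regulators, 2 were higher and none was lower, beside 10.9% and 9.99% of all tested genes. NFE2L2, an activator of antioxidant and ferritin genes, was at 41.4 FPKM in both controls and at 50.8 and 48.6 FPKM after knockdown (log2 fold change 0.26, limma adjusted p = 0.0233). MAFG, its small dimer partner, was at 30.3 FPKM in both controls and at 35.6 and 34.9 FPKM after knockdown (log2 fold change 0.21, limma adjusted p = 0.0412). Both calls were lost without knockdown 1 (adjusted p = 0.166 and 0.214) and without knockdown 2 (adjusted p = 0.0917 and 0.156), and that of MAFG also without control 1 (0.0717) and control 2 (0.0766). EIF2AK1, the kinase that lowers translation when heme is short, was not called (log2 fold change -0.013, limma adjusted p = 0.891).

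Erythroid markers moved in both directions beside the members. Of 13 tested markers, 3 were higher and 1 lower, beside 10.9% and 9.99% of all tested genes. HBZ, the embryonic zeta globin, was at 385 and 358 FPKM in the 2 controls and 209 and 210 FPKM after knockdown (log2 fold change -0.83, limma adjusted p = 0.000959). TAL1, an erythroid and megakaryocyte regulator, and the fetal globins HBG1 and HBG2 were higher, with log2 fold changes of 0.39, 0.36 and 0.28 (limma adjusted p = 0.0134, 0.0132 and 0.0487). HBG1 and HBG2 are near-identical copies, so the division of reads between them is uncertain. Without knockdown 1 the adjusted p was 0.0691 for TAL1, 0.188 for HBG1 and 0.413 for HBG2. Without knockdown 2 it was 0.0688 for TAL1, 0.115 for HBG1 and 0.217 for HBG2, and for HBG2 it was 0.0599 without control 1 and 0.162 without control 2. The median log2 fold change of the 13 tested markers was -0.02. The summed level of the list was 8358 and 7886 FPKM in the control samples, against 9361 and 8775 FPKM with the knockdown. HBG1 and HBG2 made up the rise: without them, an alternative chosen after seeing the data, the sums were 3724 and 3512 FPKM in the control samples and 3597 and 3399 FPKM with the knockdown. GATA1 and KLF1, erythroid regulators named after their values were seen, were not called, with log2 fold changes of -0.10 (limma adjusted p = 0.36) and 0.069 (limma adjusted p = 0.632). Of 6 megakaryocyte markers, 3 were not analysed here and 2 were below the filter. ITGA2B was tested and was higher (log2 fold change 0.42, limma adjusted p = 0.0241). Its adjusted p was 0.0779 without control 2, 0.122 without knockdown 1 and 0.0515 without knockdown 2. Of the promyelocyte and granulocyte list, LYZ was lower (log2 fold change -0.30, limma adjusted p = 0.0289), and its adjusted p was 0.0798 without control 1, 0.141 without knockdown 1 and 0.0925 without knockdown 2. LYZ was the only one of 5 tested genes of that list to be called, and the other 4 had positive estimates. CD33, a myeloid surface protein, was at 4.31 and 7.57 FPKM in the control samples, against 9.77 and 9.41 FPKM with the knockdown (log2 fold change 0.65, limma adjusted p = 0.0603), and SPI1, a myeloid regulator, had a log2 fold change of 0.15 (limma adjusted p = 0.132). The median of that list was 0.07, and its sum was 54.8 and 54.5 FPKM in the control samples, against 57.0 and 57.1 FPKM with the knockdown. The part of these marker differences in the values of the members was not tested.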

How the data were processed

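Libraries were made from total RNA with a TruSeq kit per the labels. The submitters' processing notes name HISAT2 2.0.5 and hg38, and the quantifier and annotation release are not given in the sources used here. The authors deposited 1 table of FPKM values for RefSeq transcripts. Of 29265 entries, 183 held no value and 164 no symbol (0.25% of FPKM), and 28918 transcripts were summed to 16504 symbols. The values are not counts, so depth was unknown and no counting interval could be given, and the count test named in the study's methods could not be run.

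Genes averaging 1 FPKM or more were transformed to log2(FPKM + 1), a scale that understates the change of low genes, and compared in limma 3.58.1 (R 4.3.3) by 2-sided tests with a mean trend and Benjamini-Hochberg adjustment. The procedure was also run on simulated data, with changes placed only in genes above about 10 FPKM. The outcome of that run is not given here, and no result rests on it. Gene positions and UTRs came from GENCODE 44 (GRCh38). The members and lists were chosen with earlier results of these data known. Beside the list genes not analysed here, 2 more are not reported here. Named were the members, list genes that were called or below the filter, marker genes at the ends of their lists, CEBPG, and the 3 genes averaging 10 FPKM or more that were most like ALAS2 by Euclidean distance of centred log2 values. TFR2, EIF2AK1, GATA1, KLF1, SLC4A1, AHSP, CD33, SPI1, PRTN3 and AZU1 were named after their values were seen. Alternatives were a pseudocount of 0.1, no filter, a mean of at least 5 FPKM, a replicate block, median-ratio scaling, scaling to a common sum, no mean trend, each library left out, and transcripts in place of genes.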

Additional observations from a re-analysis of the deposited data

How the results depend on the processing

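Depth was unknown, each group had 2 libraries, and a fit without 1 library assumes that the lone one varies like the other group. Over all genes, the count called of 2288 was 882 without a filter, 3440 with the replicate block and 25 with transcripts in place of genes, and 809 to 1931 with 1 library left out. The 3 members called lower became 1 without a filter (ALAS2, with ALAD at an adjusted p of 0.058 and FECH at 0.0949), 0 with transcripts, and 1 to 2 with 1 library left out. FECH was also lost without the mean trend (limma adjusted p = 0.0564). The median of the members ranged from -0.089 to 0.077 with 1 library left out, with the sign set by which library was absent, and UROS turned positive without control 1 (0.077) and without knockdown 1 (0.024).

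In the other lists, the 6 genes called higher became 1 and the 9 lower became 5 without a filter, and both became 0 with transcripts. With 1 library left out they were 0 to 7 and 4 to 9. Among member transcripts, the count called of 0 became 1 with a mean of at least 5 FPKM, with median-ratio scaling and with a common sum. In the marker lists, TAL1, HBG1, HBG2, LYZ and ITGA2B were not called without a filter (limma adjusted p = 0.0587, 0.117, 0.306, 0.0804 and 0.0943). HBG2 was also lost without the mean trend (limma adjusted p = 0.0625), and HBZ kept its call under both settings. Of all calls, 52.1% were higher, and this was 62.9% without control 1 and 43.2% without control 2. The deviations of same-numbered libraries had a correlation of 0.101 across 10968 genes, with low and abundant genes weighted alike. The labels tie no numbers together. With the replicate block 1 member was called higher, TFRC (log2 fold change 0.19, limma adjusted p = 0.0105), and UROD was called lower (log2 fold change -0.14, limma adjusted p = 0.0299).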

Other observations

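The 3 genes whose library values were most like those of ALAS2 were NUDCD3, ARHGEF1 and HAX1, at Euclidean distances of 0.0668, 0.0895 and 0.0963 over 4 libraries on the centred log2(FPKM + 1) scale. NUDCD3 was at 14.3 and 12.4 FPKM in the control samples, against 8.48 and 7.50 FPKM with the knockdown. ARHGEF1 was at 39.7 and 35.2 FPKM in the 2 controls and 22.1 and 21.0 FPKM after knockdown. HAX1 was at 102 and 90.4 FPKM in the control samples, against 64.9 and 56.1 FPKM with the knockdown. In each of these, as in ALAS2, control 1 was the highest library and knockdown 2 the lowest. With 4 libraries that share their scaling, a short distance is a description only.

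Within the ferritin pair, the ratio of FTL to FTH1 was 1.98 and 1.87 in the controls and 2.13 and 2.16 in the knockdown libraries, so the light chain made up a larger part of the pair in both knockdown libraries.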
